A study of Mus musculus with 52 samples.

Results

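D8 is 1 of 4 control clones of ciliated Cilia-APEX-IMCD3 cells, and its 4 RNA-seq libraries were compared here with the 12 libraries of the other 3 control clones, H12, A4 and G7. These 16 libraries were chosen by the clone name in their sample titles, out of 52 libraries in 13 groups, each a clone in the ciliated or the non-ciliated state. IMCD3 is an immortalised epithelial line from the inner medullary collecting duct of the mouse kidney, and the Cilia-APEX derivative carries a peroxidase directed to the primary cilium. The series was made to compare clones carrying missense changes in Wdr34 or Wdr60, which encode intermediate chains of the dynein-2 motor of the cilium, with control clones. All 4 control clones were labelled as control genotype, CRISPR treated and ciliated, and per the study's methods they received the BE4-Gam base editor with a guide vector that held no targeting sequence, were grown from single sorted cells, and were starved of serum to form cilia. The sample labels name only medium with serum. Each clone is thus 1 lineage, and its 4 libraries are technical replicates. Apart from a test over clones, every p-value below takes the library as the sample and is no test over independent clones. The main fit pools the 12 other libraries, so its spread also holds the differences among H12, A4 and G7. In a second fit with 4 clone groups the spread is only that between libraries of a clone. The test over clones, with a single D8 clone against 3, has little precision, and its counts are given with the overall results.

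The collecting duct concentrates urine, and its principal cells do so with the aquaporin water channels, the epithelial sodium channel and, in the inner medulla, urea transporters. Cultured cells that stop dividing and lose serum extend a primary cilium, and they also switch growth factor and stress responsive genes off and on. Genes of the immediate early group, such as Fos and Egr family members, respond within minutes to serum, stretch or stress, whereas interferon-stimulated genes respond to sensing of foreign nucleic acid.

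The D8 libraries held 14816218 to 17037944 counts and the other 12 held 15626194 to 28084979, with 14183 to 14358 and 13476 to 14357 genes detected. Replicates of D8 differed from each other by a chi-square per degree of freedom of 2.36 to 8.23, against 2.63 to 19.5 in H12, 5.56 to 58.6 in A4 and 2.87 to 68.8 in G7, so that no library was a copy of another. A4 replicate 1 stood apart from its own clone in several gene groups described below, and G7 replicate 4 was the deepest library. Levels are given as CPM, the usual depth-scaled count, with library sizes scaled by the trimmed mean of M-values. In bulk RNA such as this, fewer cells that express a gene and less of its RNA in each cell cannot be told apart. The collecting duct label was only partly borne out by its markers: Aqp2, the vasopressin-regulated water channel, had 0 counts in all 16 libraries, and Aqp3 reached at most 0.788 CPM in D8, while the kidney epithelial transcription factor Pax8 was well expressed (270 to 287 CPM in D8). D8 kept the epithelial genes Cdh1 at 608 to 642 CPM and Krt8 at 908 to 994 CPM. G7 did not, with 10.9 to 18.1 CPM of Cdh1 and 24.7 to 30.1 CPM of Krt8, and stood apart from the other 3 clones in both. Wdr34 lay at 41.3 to 50.1 CPM in D8 with a median of 42.1 CPM in the others, and Wdr60 at 23.4 to 28.6 CPM against 20.9 to 26.3 CPM. Neither was called different between D8 and the 12 libraries (edgeR adjusted p = 0.42 and 0.299), and neither was a target in these clones.

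Of 12325 genes tested with edgeR's quasi-likelihood test, 339 were higher in D8 than in the 12 other libraries (2.75%) and 280 were lower (2.27%). In either direction 5.02% of all genes were called, and the count of each gene list below is to be read against that share. At an unadjusted p under 0.05 the share was much larger, 4626 of 12325 genes (37.5%), and counts of list members at that threshold are to be read against it. DESeq2 called 370 genes higher and 364 lower. A gene was called when its Benjamini-Hochberg adjusted p was below 0.05 and its log2 fold change was 1 or more in either direction. Because the other clones also differed among themselves, D8 was compared with each of them in a second fit. D8 had 834 genes higher (6.77%) and 677 lower (5.49%) than H12, 549 higher (4.45%) and 260 lower (2.11%) than A4, and 1813 higher (14.7%) and 1073 lower (8.71%) than G7. Against each of the 3 clones at once, 172 genes were higher (1.40%) and 90 were lower (0.730%). The 172 included 159 of the 339, and the 90 were all among the 280. The 4 D8 libraries lay above all 12 others for 907 genes (7.36%) and below them for 931 genes (7.55%), and this separation held for 283 of the 339 and for 170 of the 280. Among the genes called against the 12 libraries, 16 higher and 37 lower ones were called against G7 and against no other single clone. When the 4 libraries of each clone were summed and the clone was made the sample, 0 genes were called by edgeR in either direction, with 267 of 13818 genes (1.93%) at an unadjusted p under 0.05. DESeq2 was not run on these sums.

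Some of the largest increases in D8 were in genes that the other clones scarcely expressed. Lonrf3, a gene for a RING finger protein with a Lon protease-like domain at chrX:36328358-36366857, had 35.8, 37.8, 34.8 and 40.3 CPM in the 4 D8 libraries, and a lowest, median and highest value of 0, 0.158 and 1.39 CPM in the 12 others. All D8 libraries were high and the groups were far apart, with a log2 fold change of 6.37 ± 0.73 (SE, adjusted p = 4.09e-05). Prune2 at chr19:16955668-17223963, a member of the Prune family, had 18.6, 16.7, 17.7 and 18.4 CPM in D8 and 0.0546, 0.490 and 1.55 CPM (lowest, median, highest) in the others, a log2 fold change of 4.82 ± 0.47 (adjusted p = 1.41e-05). Gcnt1, its neighbour on chromosome 19, was called higher as well. H19 at chr7:142575530-142578146, an imprinted long noncoding RNA of fetal growth control, had 8.31, 9.94, 8.19 and 9.05 CPM in D8 and at most 1.49 CPM elsewhere (log2 fold change 4.74, adjusted p = 0.000756). The imprinted gene list as a whole did not share this direction, as 2 of its 16 tested members were higher, 1 was lower and the median log2 fold change was -0.010.

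Il11 at chr7:4772373-4782907, which encodes a cytokine of the interleukin-6 family, stood at 52.9, 45.4, 42.5 and 57.0 CPM in D8. The other libraries ranged from 0.359 through a median of 0.809 to 9.62 CPM, and the highest of these were in A4. D8 exceeded all of them, with log2 fold changes of 6.54 against H12, 3.12 against A4 and 5.98 against G7. Bdkrb2 at chr12:105563172-105595244, the bradykinin B2 receptor, had 24.9, 25.3, 20.4 and 23.2 CPM in D8 against a range of 0.374 to 6.18 CPM (log2 fold change 3.44 ± 0.60, adjusted p = 0.00111). The zinc-finger transcription factor Plag1 at chr4:3898769-3938430 had 5.58 to 7.32 CPM in D8 against 0.0622 to 1.24 CPM (log2 fold change 3.40, adjusted p = 0.000129). For both genes A4, H12 and G7 were all below D8, and each call passed the threshold with any 1 library left out.

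**Figure D1:**
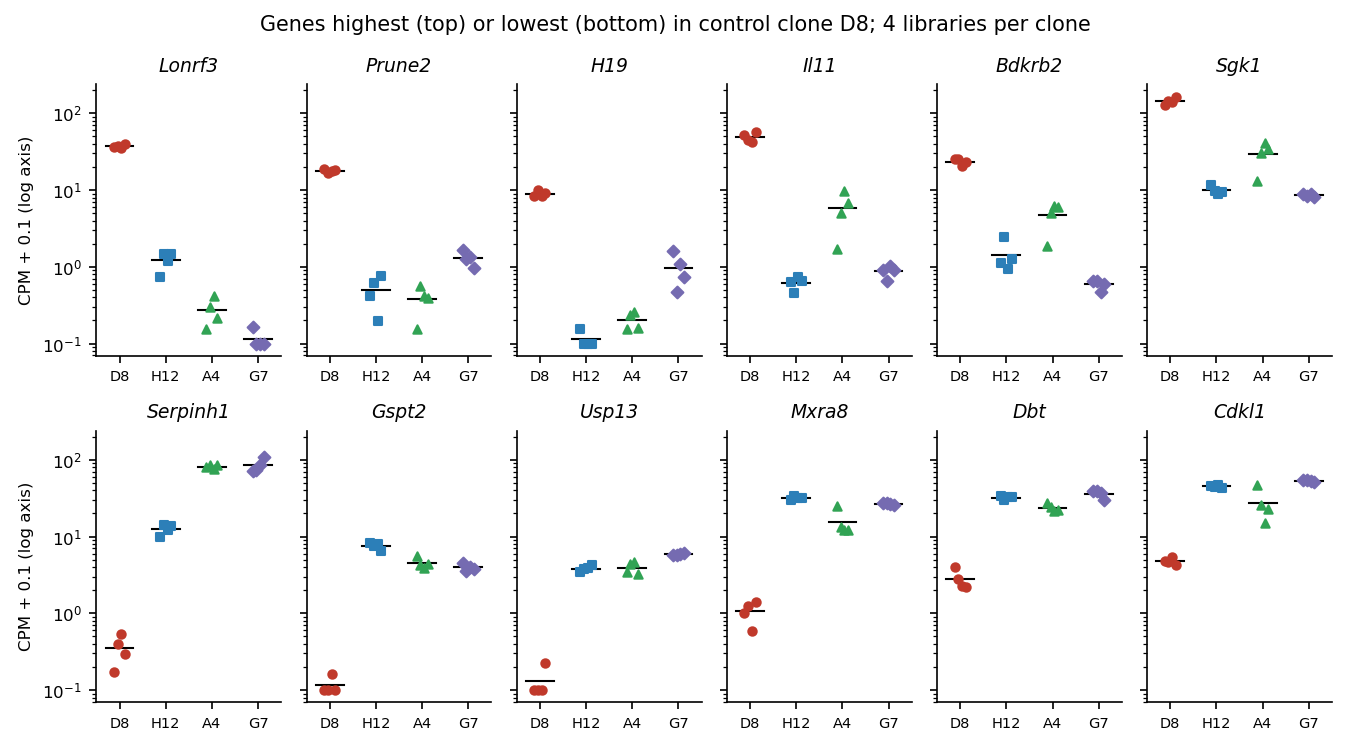
CPM plus 0.1 on a log axis in each library of D8, H12, A4 and G7, with a bar at the clone mean, for 6 genes high and 6 genes low in D8. The 4 D8 libraries lie apart from the 12 others in every panel, and A4 replicate 1 is the lowest A4 library for Il11, Bdkrb2 and Sgk1.

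The decreases in D8 included genes with almost no reads left. Serpinh1 at chr7:99345375-99353239 encodes the collagen chaperone HSP47, which folds procollagen in the endoplasmic reticulum. It had 0.0698, 0.303, 0.431 and 0.193 CPM in D8, 16 counts in all, whereas the other libraries had 9.89 CPM at the lowest, 73.6 CPM at the median and 108 CPM at the highest. The groups did not overlap and the log2 fold change was -7.83 ± 1.01 (adjusted p = 0.00013), with H12 (12.5 ± 1.93 CPM, SD, n = 4 libraries) far below A4 (81.5 ± 5.49 CPM) and G7 (84.3 ± 17.2 CPM). Gspt2 at chrX:94636069-94638562, a translation termination factor encoded by an intronless gene, had 1 count in 4 D8 libraries and 3.51 to 8.07 CPM in the others. Its summed level was 330-fold lower in D8, with a 95% counting interval from 59.2 to 1.3e+04. Zfp709 at chr8:71882068-71892565, a zinc-finger gene, had 0 counts in D8 and 1.07 to 3.39 CPM elsewhere, which makes its level pooled over libraries at least 45.3-fold lower, taking 3 counts over the 4 libraries as the limit. Adh1, an alcohol dehydrogenase that also oxidises retinol, had 0 counts in D8, and G7 (12.4 CPM) held far more of it than H12 (0.937 CPM) and A4 (0.927 CPM). Intervals and limits of this kind cover counting error only.

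Of the 90 genes lower than in each clone, 43 had a D8 mean below 1 CPM. Kitl at chr10:100015615-100100416, the ligand of the Kit receptor, was 1 of them, with 0.140, 0.182, 0 and 0.257 CPM in D8 against 1.77 to 14.6 CPM (log2 fold change -5.55 ± 0.79, adjusted p = 0.000277). Ppm1h at chr10:122677428-122945795, a protein phosphatase gene, had 0 to 0.363 CPM in D8 against 4.28 to 24.5 CPM (log2 fold change -6.20, adjusted p = 0.000169). Mxra8 at chr4:155839680-155844102, a matrix-remodelling associated membrane protein, had 0.907, 1.15, 0.493 and 1.28 CPM in D8 against 11.9, 26.7 and 34.0 CPM (lowest, median, highest), a log2 fold change of -4.67 ± 0.40 (adjusted p = 2.81e-06). All 3 were lower in each D8 library than in any other library. Cdkl1 at chr12:69745167-69791196, a kinase of the cyclin-dependent kinase-like family, had 4.17 to 5.36 CPM in D8 against 15.1 to 55.2 CPM (log2 fold change -3.15, adjusted p = 2.08e-05). Galnt18 at chr7:111471656-111780067, of the enzyme family that starts O-glycosylation, had 0 counts in D8 and was also low in H12 (0.342 CPM) and A4 (1.15 CPM) beside G7 (51.6 CPM). Its call was lost when any 1 library of D8 or of G7 was left out, where the adjusted p reached at most 0.0976.

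Genes of the immediate early group were higher in D8, and A4 stood nearest to it. All 26 tested members had a positive log2 fold change against the 12 libraries, with a median of 1.529 against -0.040 for all genes tested. Of the 26, 11 were called higher (42.3%, against 2.75% of all genes) and 0 lower. By edgeR, 19 members were higher at an unadjusted p under 0.05 (beside 37.5% of all genes in either direction) and 0 were lower, and DESeq2 called 13 higher and 0 lower. The median was 2.367 against H12 and 3.133 against G7 but 0.568 against A4, and 3 members, Fosb, Atf3 and Dusp1, were called against each clone. Fosb at chr7:19302696-19310118, a subunit of the AP-1 transcription factor, had 52.7, 45.3, 45.2 and 52.6 CPM in D8 and 0.498, 1.46 and 18.9 CPM (lowest, median, highest) in the others, a log2 fold change of 3.55 ± 0.73 (adjusted p = 0.0035). Its D8 libraries were all above the highest A4 library. Fos at chr12:85473890-85477274 had 28.5 to 33.0 CPM in D8 against 5.15 to 23.9 CPM (log2 fold change 1.52, adjusted p = 0.0133), and the call was lost without clone H12 (adjusted p = 0.0518). Klf6 at chr13:5861489-5870393, a Krüppel-like factor, had 713 to 854 CPM against 115 to 634 CPM (log2 fold change 1.55, adjusted p = 0.0139). The D8 libraries again lay above every other library.

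The stress-induced factor Atf3, the MAP kinase phosphatase Dusp1 and the AP-1 subunit Jun are described here after their values were seen. Atf3 at chr1:191170296-191183333 had 380, 383, 342 and 409 CPM in D8, and clone means of 10.2 ± 0.373 CPM in H12, 159 ± 92.5 CPM in A4 and 13.9 ± 1.93 CPM in G7. Dusp1 at chr17:26505591-26508472 had 606, 580, 526 and 645 CPM in D8 and a lowest, median and highest of 19.8, 22.4 and 380 CPM in the others. H12 and G7 held little of either gene, and the wide spread of A4 came from its replicate 1. The log2 fold changes were 2.63 ± 0.85 for Atf3 (adjusted p = 0.0356) and 2.53 ± 0.83 for Dusp1 (adjusted p = 0.0392). These calls were weak, since Atf3 lost its call when any D8 library or A4 replicate 1 was left out (adjusted p at most 0.0854), and Dusp1 when any of 13 libraries was left out (adjusted p at most 0.0925). Both calls were also lost without clone H12 or clone G7. Jun had 388 to 452 CPM in D8 against 76.8 to 364 CPM elsewhere (log2 fold change 1.53, adjusted p = 0.018). Myc at chr15:61985341-61990361, called together with its neighbour Pvt1, had 292 to 342 CPM against 25.5 to 278 CPM (log2 fold change 1.65, adjusted p = 0.0456), a call also lost when any of 13 libraries was left out.

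The number of immediate early genes called higher turned on which clones stood beside D8. It was 3 without H12, 25 without A4, 7 without G7, 8 without A4 replicate 1, 9 without G7 replicate 4 and 24 when the 4 clones were fitted as separate groups. The mean level of the 26 genes, as log2(CPM + 1) relative to the 16-library mean, was 1.519 to 1.644 in D8, -0.911 to -0.815 in H12 and -1.754 to -1.579 in G7. In A4 it was -0.018 in replicate 1 and 1.135 to 1.397 in the other 3 libraries. D8 was thus the highest clone and its 4 libraries were nearly alike, while A4 held 1 library between the extremes. No label records harvest or handling of single libraries.

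The promoter of Dusp1 is shown because it carries the letters of a cyclic AMP response element (CRE), a site known from immediate early genes. The stretch is the 150 bases before the gene start at chr17:26508473-26508622 on the minus strand, from RefSeq for GRCm38.p6, with the CRE letters TGACGTCA in capitals.
Dusp1: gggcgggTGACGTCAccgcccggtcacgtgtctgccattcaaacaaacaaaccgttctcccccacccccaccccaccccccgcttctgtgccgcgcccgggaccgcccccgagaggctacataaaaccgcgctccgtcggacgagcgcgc
Within 250 bases before the start, on either strand, these letters stood in 3 of 21 immediate early genes that had a promoter sequence (14.3%), Dusp1, Btg2 and Maff, in 478 of 27025 genes overall (1.77%) and in 310 of 9359 tested genes (3.31%). Of the 10 members called higher that had a promoter sequence, 1 held them. The AP-1 letters TGANTCA stood in 0 of the 21 and in 2113 of all genes (7.82%), and the CArG box of serum response factor in 2 of the 21 and in 439 of all genes (1.62%). A match of letters is a description and shows no binding.

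**Figure D2:**
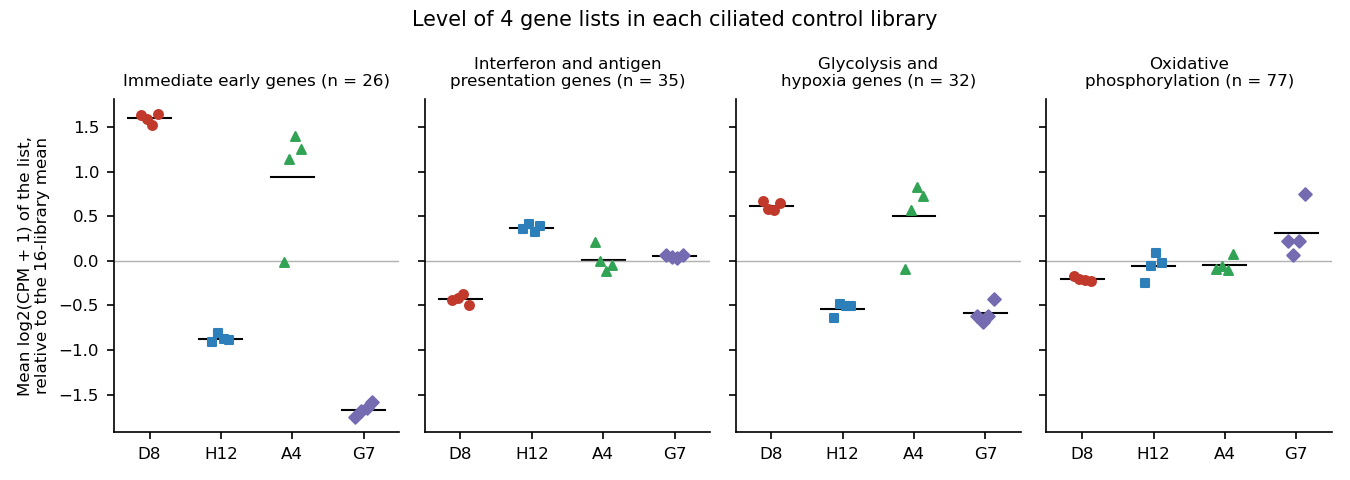
Mean log2(CPM + 1) of 4 gene lists in each library, relative to the mean of the 16 libraries, with a bar at the clone mean. D8 is highest for immediate early genes (1.519 to 1.644) and lowest for interferon and antigen presentation genes (-0.493 to -0.376), and A4 replicate 1 lies apart from the other A4 libraries for the immediate early and the glycolysis and hypoxia genes. For oxidative phosphorylation G7 replicate 4 is the highest library (0.752).

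Of 35 interferon-stimulated and antigen presentation genes tested, 11 were lower in D8 (31.4%, against 2.27% of all genes) and 0 higher, 24 were not called, 33 had a negative log2 fold change, and the median was -0.93. At an unadjusted p under 0.05, where edgeR had 37.5% of all genes, it gave 20 lower and 0 higher, and DESeq2 called 11 lower and 0 higher. The medians against H12, A4 and G7 were -1.061, -0.42 and -0.652. Parp14 at chr16:35831892-35871518, an ADP-ribosyltransferase induced by interferon, had 1.96, 2.12, 2.65 and 1.93 CPM in D8 and 4.80, 6.62 and 8.65 CPM (lowest, median, highest) in the others. Its groups did not overlap, and its log2 fold change was -1.65 ± 0.19 (adjusted p = 4.09e-05). Ifit1 at chr19:34640889-34650009, which binds foreign RNA, had 1.70 to 2.86 CPM in D8 and means of 10.7 CPM in H12, 9.39 CPM in A4 and 3.27 CPM in G7 (log2 fold change -1.76, adjusted p = 0.0127). G7 overlapped D8 for this gene, and the call was lost without D8 replicate 2, where the adjusted p reached 0.0527, or without replicate 4, and without clone H12. Tap1 and Psmb9, neighbours on chromosome 17 that serve peptide loading of major histocompatibility complex class I, had log2 fold changes of -1.20 (adjusted p = 0.0193) and -2.64 (adjusted p = 0.016). Psmb9 rested on 9 counts in all of D8, beside 2 to 53 counts in each other library. Tap1 had 22 to 49 counts in each D8 library and 38 to 184 in each other library.

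Gbp2, a guanylate-binding protein, and Isg15, a ubiquitin-like modifier, are given after their values were seen. Gbp2 at chr3:142620663-142638008 had 0.209, 0.303, 0 and 0.128 CPM in D8 against 0.174 to 1.49 CPM (log2 fold change -2.36 ± 0.64, adjusted p = 0.0163), and its call was lost without D8 replicate 4 (adjusted p = 0.0621). Isg15 at chr4:156199424-156200818 had 2.09, 2.54, 1.85 and 1.73 CPM in D8 and means of 8.12 CPM in H12, 8.92 CPM in A4 and 2.41 CPM in G7 (log2 fold change -1.65, adjusted p = 0.023), with its call lost when any D8 library was left out (adjusted p at most 0.079). Both calls were also lost without clone H12. Over the list, Gbp2 and Parp14 were called lower against each of the 3 clones. The count of 11 became 6 without H12, 12 without A4, 15 without G7, 10 without A4 replicate 1 and 11 without G7 replicate 4.

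The promoters of 3 of these genes are shown because they carry the letters of the interferon-stimulated response element (ISRE), GAAA and again GAAA with any 2 bases between, given in capitals on whichever strand they were found. Each stretch is the 150 bases before the gene start from RefSeq for GRCm38.p6: Gbp2 at chr3:142620513-142620662 on the plus strand, Isg15 at chr4:156200819-156200968 on the minus strand with 3 overlapping matches, and Ifit1 at chr19:34640739-34640888 on the plus strand with 2 matches.
Gbp2: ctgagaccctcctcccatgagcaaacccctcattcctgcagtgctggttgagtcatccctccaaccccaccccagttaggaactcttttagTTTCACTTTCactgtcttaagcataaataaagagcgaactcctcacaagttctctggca
Isg15: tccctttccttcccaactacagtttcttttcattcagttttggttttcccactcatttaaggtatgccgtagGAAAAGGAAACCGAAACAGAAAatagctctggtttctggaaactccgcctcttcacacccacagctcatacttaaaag
Ifit1: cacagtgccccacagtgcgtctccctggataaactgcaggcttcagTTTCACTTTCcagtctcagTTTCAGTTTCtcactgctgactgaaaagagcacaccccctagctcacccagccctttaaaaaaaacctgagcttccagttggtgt
Within 250 bases before the start the ISRE letters stood in 9 of 28 list members with a promoter sequence (32.1%), in 936 of 27025 genes overall (3.46%) and in 273 of 9359 tested genes (2.92%). Of the 9 members called lower that had a promoter sequence, these 3 held them. The other 6 did not.

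Cytokine and NF-kB target genes were split. Of 22 tested, 3 were higher, Il11, Tnfaip3 and Cxcl2, and 2 were lower, Birc3 and Ccl5, and all 5 were called against each clone. Tnfaip3, a ubiquitin-editing inhibitor of NF-kB signalling, had 65.3, 61.9, 61.6 and 70.0 CPM in D8 against 5.41 to 38.3 CPM (log2 fold change 2.13, adjusted p = 0.00258). Birc3, an inhibitor of apoptosis protein, had 0.493 to 0.848 CPM in D8 against 1.26 to 5.11 CPM (log2 fold change -2.08, adjusted p = 0.000992). The chemokine Ccl5 was likewise below every other library, at 0.303 to 0.616 CPM against 0.633 to 2.84 CPM (log2 fold change -1.93).

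Several matrix genes were higher in D8, while the collagen chaperone Serpinh1 was nearly without reads. Fn1 at chr1:71585473-71653280, fibronectin, had 3863, 3403, 3399 and 3652 CPM in D8 and a lowest, median and highest of 406, 539 and 2484 CPM in the others (log2 fold change 2.08 ± 0.40, adjusted p = 0.00206). Of 17 collagen genes tested, 4 were higher, Col7a1, Col4a1, Col20a1 and Col11a2, each also against every clone, and 1, Col6a1, was lower. The median over the collagens was -0.101. Col7a1 at chr9:108953586-108984875, the anchoring fibril collagen, had 31.6, 19.1, 21.2 and 21.4 CPM in D8 against 0.0623 to 6.56 CPM (log2 fold change 2.98 ± 0.73, adjusted p = 0.00969). Col20a1 had 7.96 to 10.6 CPM against 0.872 to 3.28 CPM (log2 fold change 2.27, adjusted p = 3.19e-05). Col4a1 of basement membranes stayed low in absolute terms, at 1.35 to 2.42 CPM in D8 against at most 1.12 CPM.

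Among 40 tested matrix proteases and serpins, 6 were higher and 1, Serpinh1, was lower, with a median log2 fold change of 0.28. Mmp13 at chr9:7272514-7283333, collagenase 3, had 3.77, 2.91, 4.19 and 3.98 CPM in D8 and at most 0.269 CPM in the others (log2 fold change 5.05 ± 0.47, adjusted p = 8.25e-06). Ankrd1 at chr19:36111965-36119844, a target of the YAP coactivator, had 761 to 839 CPM in D8 against 92.1 to 349 CPM (log2 fold change 2.38 ± 0.30, adjusted p = 0.000113). It was the only one of 20 YAP and serum response factor targets called against the 12 libraries, a share of 5% beside 5.02% of all genes. The squamous genes Krt17 (16.2 to 21.1 CPM in D8 against 0 to 5.64 CPM) and Sprr1a (39.3 to 52.0 CPM against 0 to 15.3 CPM) were also higher, with log2 fold changes of 3.71 (adjusted p = 0.0129) and 3.59 (adjusted p = 0.0238). Both calls were lost without H12, and that of Sprr1a without any D8 library (adjusted p at most 0.0646).

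Genes of collecting duct transport did not move as a group. Of 18 principal cell markers, 8 passed the expression filter, and 3 of these were higher and 2 lower. Their median log2 fold change was -0.547, with 3 of the 8 positive. Against H12, A4 and G7 the medians were 0.518, -0.362 and -0.08. Sgk1 at chr10:21882184-21999903, the aldosterone-induced kinase that raises sodium channel activity, had 130, 143, 138 and 164 CPM in D8 and 8.12, 9.40 and 40.4 CPM (lowest, median, highest) in the others (log2 fold change 3.18 ± 0.40, adjusted p = 0.000111). Hsd11b2, which inactivates glucocorticoids in aldosterone target cells, had 7.26 to 10.4 CPM in D8 against 0.424 to 4.83 CPM (log2 fold change 1.82, adjusted p = 0.0073). Both urea transporter genes, which lie side by side on chromosome 18, were higher in D8. Slc14a2 at chr18:78146144-78596950, which encodes the collecting duct urea transporter UT-A, had 4.12, 3.76, 4.50 and 6.36 CPM in D8 and at most 0.387 CPM in the others, with 0 counts in all 4 G7 libraries (log2 fold change 5.58 ± 0.66, adjusted p = 5.68e-05). Slc14a1 at chr18:78100091-78142119 had 2.02, 3.27, 2.77 and 3.21 CPM against 0 to 0.267 CPM (log2 fold change 5.05 ± 0.58, adjusted p = 4.64e-05). Both genes were higher than in each of the 3 clones.

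A sodium channel subunit went the other way. Scnn1g, the gamma subunit of the epithelial sodium channel, was at 0.255 CPM in D8 against 0.717 CPM in H12, 0.465 CPM in A4 and 1.35 CPM in G7 (log2 fold change -1.70, adjusted p = 0.0323). Summed over all 18 markers, the level was 1060 to 1130 CPM in D8, 1110 to 1200 CPM in H12, 1450 to 1760 CPM in A4 and 2700 to 2870 CPM in G7. Dpep1 at chr8:123186235-123201812, a membrane dipeptidase chosen after its values were seen, had 2.46 to 3.77 CPM in D8 and at most 0.166 CPM elsewhere (log2 fold change 6.33, adjusted p = 1.44e-05).

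Markers of other cell types were read as summed levels over each marker list. Of 10 endothelial markers 3 were tested, and Flt1 and Plvap were higher in D8, yet Pecam1 stayed at or below 0.123 CPM in D8 and the summed level of the 10 was 5.73 to 6.85 CPM in D8, 2.04 to 2.77 CPM in H12, 2.78 to 5.32 CPM in A4 and 2.85 to 4.36 CPM in G7. Of 10 immune markers 2 were tested and Cd68 was higher. Ptprc, the common leukocyte antigen, was 0.242 to 0.739 CPM in D8 and at most 0.269 CPM elsewhere, and the summed immune level was 179 to 212 CPM in D8, 257 to 289 CPM in H12, 141 to 224 CPM in A4 and 290 to 316 CPM in G7. Fibroblast markers summed to 4.82 to 5.65 CPM in D8, 3.9 to 5.81 CPM in H12, 2.74 to 4.53 CPM in A4 and 28.4 to 34.8 CPM in G7. Muscle markers summed to 69.7 to 75.4 CPM in D8, above H12 (13.1 to 15.9 CPM), A4 (47.9 to 68.7 CPM) and G7 (0.969 to 1.51 CPM). Podocyte markers summed to 752 to 822 CPM in D8 and 566 to 885 CPM in the others, with 1 of the 3 tested, Synpo, lower (log2 fold change -1.05, adjusted p = 0.00343), and neuron markers to 19.3 to 21.4 CPM in D8 and 1.53 to 26.3 CPM in the others. Of the 12 proximal tubule markers, which summed to 31.5 to 37.1 CPM in D8, 16.1 to 20.1 CPM in H12, 24.8 to 33.3 CPM in A4 and 319 to 556 CPM in G7, 6 were at 0 in all libraries and 1 of the 4 tested, Cyp4b1, was higher (log2 fold change 2.85, adjusted p = 0.00334). Loop of Henle markers summed to 1.67 to 2.58 CPM in D8, 10.5 to 12.8 CPM in H12, 0.463 to 1.91 CPM in A4 and 2.06 to 2.92 CPM in G7, and intercalated cell markers to 21 to 23.3 CPM in D8 and 15.4 to 30 CPM in the others. Single genes made up most of some of these sums in D8. They included Tnnt2 for muscle (67.3 to 73.6 CPM), Csf1r for immune cells (176 to 208 CPM) and Cd2ap for podocytes (555 to 622 CPM). Lrp2 for the proximal tubule (26.45 to 28.65 CPM), Tubb3 for neurons (18.7 to 21.29 CPM) and Car2 for intercalated cells (19.67 to 22.03 CPM) were further cases. The part of other cell types in the gene differences was not tested. The proximal tubule transporter Slc34a1 had 0 counts in all 16 libraries.

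Transcription factors that pattern the kidney tubule differed in both directions, 2 higher and 4 lower of 22 tested, with a median of -0.229. Lhx1 at chr11:84517975-84525534, a homeobox gene of the nephron lineage, had 3.77, 4.18, 4.56 and 4.75 CPM in D8 and 0.770 CPM at most in the others (log2 fold change 4.33 ± 0.79, adjusted p = 0.00157). Its antisense neighbour Lhx1os was also called higher, and reads of the pair cannot be told apart without strand. Sox9 at chr11:112782210-112787757, which marks progenitor and injured tubule cells, had 97.6 to 105 CPM in D8 and means of 11.9 CPM in H12, 23.2 CPM in A4 and 1.03 CPM in G7, with 36.6 CPM as the highest single library (log2 fold change 3.06 ± 0.73, adjusted p = 0.00852). Irx3 at chr8:91798511-91801654, an Iroquois homeobox gene of the intermediate tubule, had 15.4, 13.2, 14.7 and 13.2 CPM in D8 against 39.6 to 153 CPM (log2 fold change -2.46 ± 0.39, adjusted p = 0.000642). Its neighbours Crnde and Irx5 were called lower with it, Irx5 at 28.8 to 31.1 CPM against 31.9 to 99.1 CPM.

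The bHLH-PAS factor Sim1 at chr10:50894698-50989156 had 21.1 to 24.3 CPM in D8 against 41.7 to 181 CPM (log2 fold change -2.03, adjusted p = 0.0032), and the related Sim2 at chr16:94085104-94127032 had 102, 102, 103 and 103 CPM against 209 to 456 CPM (log2 fold change -1.57 ± 0.23, adjusted p = 0.000292). Both were lower than in each clone. Foxd1, a factor of kidney stroma, had 7.33 to 8.86 CPM in D8 against 13.6 to 134 CPM, and the 120 CPM mean of G7 set most of that difference (log2 fold change -2.74, adjusted p = 0.02). Pax2 at chr19:44746601-44838269, taken up after its values were seen, had 74.7 to 87.5 CPM in D8 against 93.1 to 353 CPM (log2 fold change -1.22, adjusted p = 0.0289), and its call was lost without clone G7, where the change was smaller than 1, or without any D8 library (adjusted p at most 0.0882). Of 23 Hox genes 1 was lower and 0 were higher (4.35% called, near the 5.02% of all genes), DESeq2 gave the same counts, and edgeR at an unadjusted p under 0.05 gave 8 lower and 2 higher, beside 37.5% of all genes.

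Guidance genes, which steer axons and also shape tubules and vessels, had 5 higher and 4 lower of 47 tested and a median of -0.132. Sema3e at chr5:14025276-14256689, a secreted semaphorin, had 295, 299, 291 and 329 CPM in D8 against 50.9 to 170 CPM (log2 fold change 1.38 ± 0.25, adjusted p = 0.00135). Slit2 at chr5:47981291-48307735, a Robo ligand chosen after its values were seen, had 131, 135, 132 and 139 CPM against 2.88 to 53.7 CPM (log2 fold change 2.53, adjusted p = 0.00587), and the ephrin receptor Epha7 had 1.41 to 2.72 CPM against 0 to 0.560 CPM (log2 fold change 3.94). These ligands and receptors were high in every D8 library. Sema5a at chr15:32244813-32696341, a transmembrane semaphorin, had 26.0 to 31.5 CPM in D8 against 64.4 to 316 CPM (log2 fold change -2.49 ± 0.46, adjusted p = 0.00159). Netrin 1 (Ntn1, chr11:68209364-68386826) had 22.1 to 25.2 CPM against 43.3 to 115 CPM (log2 fold change -1.57, adjusted p = 0.00242), and ephrin A2 (Efna2, chr10:80179482-80190010) had 2.83 to 3.70 CPM against 8.28 to 21.2 CPM (log2 fold change -2.08, adjusted p = 3.77e-05). Sema5a, Ntn1 and Efna2 were each called lower against all 3 clones.

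Of 33 EGF and FGF family genes and their feedback inhibitors, 5 were higher, Hbegf, Nrg1, Spry2, Spred1 and Spred3 (15.2% called, against 5.02% of all genes), and 0 were lower, with a median of 0.793. At an unadjusted p under 0.05 edgeR gave 10 higher and 3 lower, near the 37.5% of all genes, and DESeq2 called 5 higher and 0 lower. Hbegf, the heparin-binding EGF-like ligand, had 326 to 351 CPM in D8 and means of 79.5 CPM in H12, 237 CPM in A4 and 58.7 CPM in G7 (log2 fold change 1.44, adjusted p = 0.0246). Spry2, an inhibitor of receptor tyrosine kinase signalling, had 31.1 to 36.6 CPM against 6.57 to 25.1 CPM (log2 fold change 1.58, adjusted p = 0.00523). A4 was the nearest clone for both, and the count of 5 became 11 without A4. Dll4 at chr2:119325784-119335666, a Notch ligand, had 10.5 to 11.9 CPM in D8 against 0.427 to 7.04 CPM (log2 fold change 2.63, adjusted p = 0.00973) and was 1 of 2 higher among 17 Notch pathway genes, the other being Jag2. Follistatin (Fst, 25.7 to 33.5 CPM against 2.44 to 19.9 CPM, log2 fold change 1.94) was higher and the activin subunit Inhbb (log2 fold change -1.47, adjusted p = 0.00098) lower.

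Of 10 Hedgehog pathway genes, 2 were lower in D8 and 0 higher, while edgeR gave 3 lower and 1 higher at an unadjusted p under 0.05, near the 37.5% of all genes, and DESeq2 called 3 lower and 0 higher. Gas1 at chr13:60174405-60177535, a cell surface co-receptor for Hedgehog ligands, had 1.12, 1.09, 0.616 and 1.16 CPM in D8 and 19.1, 23.4 and 444 CPM (lowest, median, highest) in the others. The high end was G7 alone (404 ± 28.4 CPM), and D8 was also below H12 (log2 fold change -4.35) and A4 (log2 fold change -4.58). Its neighbour among tested genes, Dapk1 at chr13:60601723-60763191, a death-associated kinase, had 3.15 to 4.75 CPM in D8 against 21.1 to 117 CPM (log2 fold change -4.21 ± 0.62, adjusted p = 0.000373). The Hedgehog receptor and target Ptch1 had 14.7 to 17.3 CPM against 17.9 to 56.2 CPM (log2 fold change -1.03, adjusted p = 0.0402).

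Of 46 intraflagellar transport, BBSome and dynein-2 genes that build the cilium, 0 were called in either direction by edgeR or by DESeq2, against 5.02% of all genes tested, a share too small for this count to set the list apart, while edgeR at an unadjusted p under 0.05 gave 6 up and 7 down, beside 37.5% of all genes, and their median log2 fold change was -0.046. Of 32 transition zone and ciliary membrane genes (3.12% called), Dcdc2a at chr13:25055273-25210706, a doublecortin-domain protein of the axoneme, was the 1 called, with 105, 105, 106 and 108 CPM in D8 and 29.4 to 72.6 CPM elsewhere (log2 fold change 1.08 ± 0.22, adjusted p = 0.0036). Without clone H12 its log2 fold change no longer reached 1.

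Of 32 glycolysis and hypoxia genes, 4 were higher, Gapdh, Pgam1, Eno2 and P4ha2, and 1, Car12, was lower, and 27 had a positive log2 fold change with a median of 0.734. On the same relative scale as above, the mean level was 0.568 to 0.673 in D8, 0.573 to 0.822 in A4 replicates 2 to 4, and below 0 in A4 replicate 1, H12 and G7, so D8 and A4 overlapped. The median against A4 was 0.144, and the count of higher genes was 2 without H12, 18 without A4 and 2 without G7. P4ha2, a collagen prolyl hydroxylase induced by hypoxia, had 85.7 to 96.4 CPM in D8 against 17.8 to 78.3 CPM (log2 fold change 1.17, adjusted p = 0.0169). Counts of Gapdh and Pgam1 are uncertain, since near-identical copies could share their reads and the handling of such reads is not given. This was not tested. Car12 at chr9:66712296-66766845, a membrane carbonic anhydrase, had 5.24 to 6.83 CPM in D8 against 14.9 to 50.8 CPM (log2 fold change -2.39 ± 0.38, adjusted p = 0.000563). None of 77 nuclear-encoded oxidative phosphorylation genes and none of 33 cholesterol and fatty acid synthesis genes was called by edgeR or DESeq2, beside 5.02% of all genes by edgeR. Their medians were -0.345 and -0.463 in that order. They were -0.118 and -0.147 against H12, -0.177 and -0.051 against A4 and -0.623 and -0.896 against G7, and at an unadjusted p under 0.05 edgeR gave 32 lower and 1 higher, and 16 lower and 2 higher, beside 37.5% of all genes. For oxidative phosphorylation the mean level was -0.226 to -0.175 in D8, H12 replicate 1 (-0.25) was below it, and G7 replicate 4 (0.752) stood apart from the other G7 libraries (0.064 to 0.219).

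Retinoid genes included 2 of 9 higher in D8, Aldh1a3 (2.70 to 3.63 CPM against 0.105 to 1.02 CPM, log2 fold change 3.22, adjusted p = 0.000149) and Rdh10 (87.3 to 102 CPM against 21.9 to 49.8 CPM, log2 fold change 1.45, adjusted p = 0.000168). Both encode enzymes of retinoic acid synthesis and were higher than in each clone. The list as a whole did not share this direction, with 4 of the 9 positive and a median of -0.259. By edgeR 0 of the 9 were lower (22.2% called, against 5.02% of all genes), and DESeq2 called 2 higher and 1 lower. Adh7 and Adh1, retinol-oxidising alcohol dehydrogenases outside this list, were called lower in D8. Among cell cycle genes, set against the 5.02% called over all genes, 0 of 39 replication genes were called by edgeR or DESeq2 (edgeR at an unadjusted p under 0.05 gave 5 up and 4 down, beside 37.5% of all genes), 1 of 37 mitosis genes was lower (Cenpe) and 3 of 17 G1 cyclins and inhibitors were lower (Cdkn2c, Cdkn2d and Rbl2). Of the 37 mitosis genes 4 had a positive log2 fold change, the median was -0.212, and edgeR at an unadjusted p under 0.05 gave 17 down and 0 up, beside 37.5% of all genes in either direction. Of 314 zinc-finger (Zfp) genes, 9 were lower and 1, Zfp57, was higher, a called share of 3.18% against 5.02% of all genes tested. Of the 314, 89 had a positive log2 fold change, with a median of -0.24 against -0.04 for all genes.

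Chromosome 3 differed from the rest of the genome as a whole. Its 600 tested genes had a median log2 fold change of -0.468, and 16.7% of them were positive. The medians were -0.613 against H12, -0.32 against A4 and -0.329 against G7, so every comparison gave the same direction. On chromosome 3, 49 genes were called lower (8.17%) and 6 higher, and on the other chromosomes 1.98% were called lower. Chromosome 3 held 17.5% of all genes called lower and 16 of the 90 lower than in each clone. Of its genes, 56.5% were negative against all 3 clones at once, compared with 25.2% elsewhere. The shift ran along its whole length, since all 45 windows of 50 neighbouring genes with a mean level of at least 5 CPM had a negative median, from -0.617 to -0.318, whereas the 894 windows of other chromosomes ranged from -0.395 to 0.34. Chromosome 19 lay on the other side, with a median of 0.195 (0.274, 0.214 and 0.174 against H12, A4 and G7) and positive medians in all 34 windows, from 0.053 to 0.34. Chromosome 5 was also positive in all 3 comparisons, with a median of 0.147 (0.113, 0.18 and 0.224 against H12, A4 and G7) and 64.5% of its genes positive. Chromosome 4, which held the lowest window outside chromosome 3, was negative in all 3. Its median was -0.17 (-0.29, -0.044 and -0.12 against H12, A4 and G7), with 32.3% of its genes positive. Chromosomes 1 and 6 had medians of 0.176 and 0.12 that came mainly from 1 clone each, G7 (0.53) and H12 (0.445). DNA copy number was not measured in these data.

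**Figure D3:**
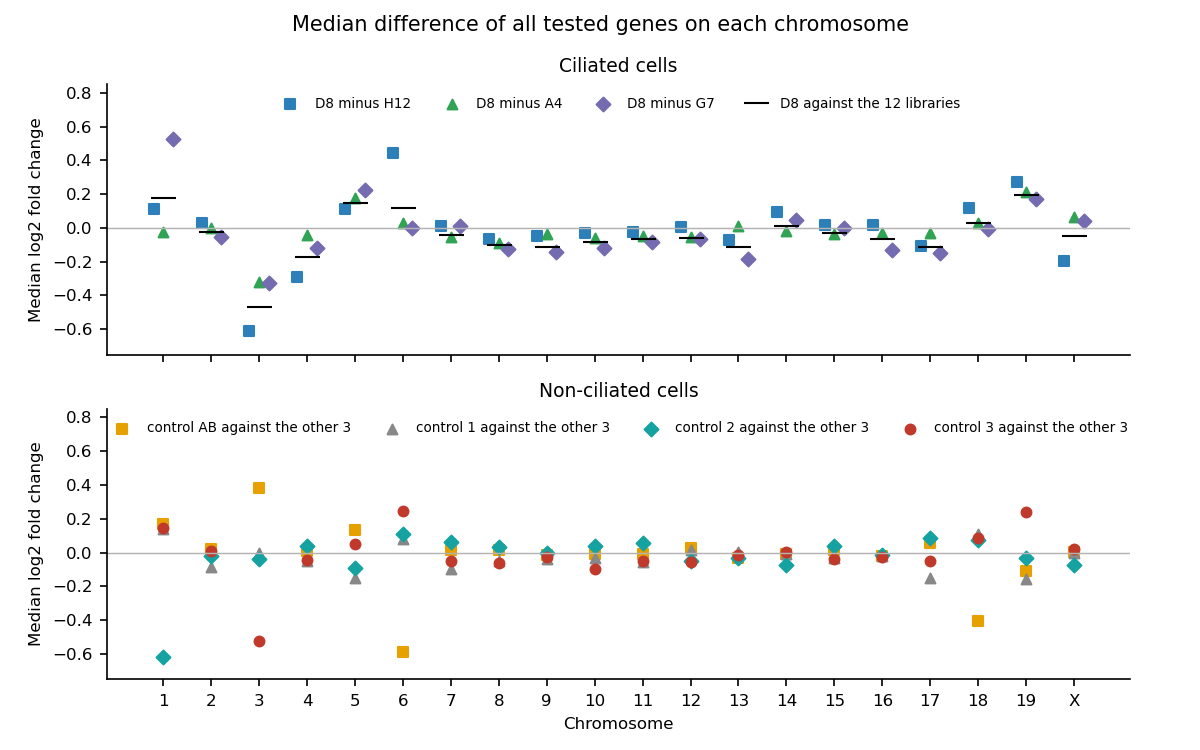
Median log2 fold change of all tested genes on each chromosome, for D8 against each other ciliated control clone and against the 12 libraries (upper panel) and for each non-ciliated control clone against the other 3 (lower panel). In the upper panel chromosome 3 is negative (-0.613 to -0.32) and chromosome 19 positive in all 3 comparisons, and in the lower panel non-ciliated control 3 is also negative on chromosome 3 (-0.526) and positive on chromosome 19 (0.242), and positive on chromosome 6 (0.246).

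The genes most reduced on chromosome 3 went far beyond its median. Usp13 at chr3:32816283-32938075, a deubiquitinase, had 0, 0, 0 and 0.128 CPM in D8 against 3.18 to 5.94 CPM (log2 fold change -6.83 ± 0.57, adjusted p = 2.72e-06). Dbt at chr3:116513070-116549981, a subunit of the branched-chain keto acid dehydrogenase complex, had 3.91, 2.73, 2.15 and 2.12 CPM against 21.2, 31.2 and 39.1 CPM (lowest, median, highest), a log2 fold change of -3.49 ± 0.23 (adjusted p = 1.55e-07). Tbx15 at chr3:99240348-99354260, a T-box factor, had 0 to 0.0642 CPM against 0.328 to 7.21 CPM (log2 fold change -6.73, adjusted p = 0.00186). Usp13, Dbt and Tbx15 are named after their values were seen, and each was lower in D8 than in every other library. Adh7 at chr3:138198064-138232042, a retinol-oxidising alcohol dehydrogenase next to Adh1, had 1.03 to 1.75 CPM against 16.2 to 162 CPM (log2 fold change -6.09 ± 0.89, adjusted p = 0.00033). Ugt8a at chr3:125865272-125938682, which makes galactosylceramide, had 1.12 to 1.79 CPM against 11.2 to 88.0 CPM (log2 fold change -4.58, adjusted p = 0.0012). Txnip at chr3:96557957-96561857, the thioredoxin-interacting protein, was reduced more evenly, at 257, 256, 238 and 240 CPM against 389 to 698 CPM (log2 fold change -1.08 ± 0.12, adjusted p = 4.11e-05). Of the 6 genes of chromosome 3 that were higher, 4 were higher than in each clone, among them Sprr1a.

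The other clones of the series were then examined for the same genes, after the values of D8 were known. In ciliated cells there were 12 further libraries, from 3 mutant clones, so that D8 could be set against 24 libraries. D8 lay above all 24 for 526 genes (4.27%) and below all 24 for 475 genes (3.85%). Those above all 24 included 207 of the 339 (61.1%), and those below all 24 included 109 of the 280 (38.9%). The 339 and 280 were called against 12 of these 24 libraries, so both shares are partly set by that choice. Some low genes of D8 were low in a mutant clone as well. Serpinh1 had a mean of 1.79 CPM in the Wdr34 clone labelled 1, against 64.5 CPM in the Wdr34 clone labelled 3 and 131 CPM in the Wdr60 clone. Usp13 had 0.0896 CPM in the Wdr34 clone labelled 1 and 0.365 CPM in the Wdr60 clone. Many of the high genes of D8 were also expressed in a mutant clone. The Wdr34 clone labelled 3 had means of 26.8 CPM for Lonrf3, 12.2 CPM for Prune2, 2.3 CPM for Slc14a1 and 3.02 CPM for Mmp13, and its means of 26.2 CPM for H19 and 35.2 CPM for Epha7 were above every D8 library. Lhx1 (4.7 CPM) and Plag1 (9.83 CPM) were expressed in the Wdr34 clone labelled 1. For other genes every mutant library was below D8, although A4 held raised levels of them among the controls. The mutant libraries held 0.395 to 2.19 CPM of Il11, 11.9 to 28.7 CPM of Sgk1 and 2.09 to 5.48 CPM of Fosb.

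Non-ciliated cells include 4 control clones, AB, 1, 2 and 3, with 4 libraries each, and each was compared with the other 3 in the same way. The labels do not say whether any of them is a ciliated clone grown in the other state, and clone identity was not tested. Of 12027 genes tested in both states, control 3 had 121 higher (1.01%) and 172 lower (1.43%). Of the 172 genes higher in D8 than in each ciliated clone, 154 were tested there and 53 were higher in control 3 (34.4%), 0 were lower, and the median log2 fold change was 1.05. Of the 90 lower genes, 86 were tested and 58 were lower in control 3 (67.4%), 0 were higher, and the median was -1.998. Shares were smaller over all genes called in D8 against the 12 libraries. Among those higher in D8, 58 of 316 tested were higher in control 3 (18.4%), 1 was lower, and the median was 0.44. Among those lower in D8, 95 of 263 were lower (36.1%), 0 were higher, and the median was -1.007. These genes were chosen in ciliated libraries, so the non-ciliated libraries were independent of that choice. The remaining clones, which are compared with control 3 among others and so share its libraries, gave smaller shares in the direction of D8. Control AB had 6 of the 154 higher and 8 of the 86 lower, against 329 higher (2.74%) and 324 lower (2.69%) overall. In the opposite direction AB had 24 of the 154 lower and 10 of the 86 higher. Control 1 had 3 higher and 1 lower, against 25 (0.208%) and 225 (1.87%), with 14 of the 154 lower and 1 of the 86 higher. Control 2 had 7 higher and 2 lower, against 524 (4.36%) and 923 (7.67%), with 65 of the 154 lower and 34 of the 86 higher.

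Many of the genes low in D8 among the ciliated controls were low in control 3 among the non-ciliated controls. Serpinh1 was 0.487 CPM in control 3 and at least 112 CPM in every library of the other 3 non-ciliated controls (log2 fold change -8.07). Dbt was 3.98 CPM in control 3 and 30.1 to 51.6 CPM in the others, Usp13 was 0.012 CPM against 4.14 to 8.83 CPM, and Zfp709 was 0.0505 CPM against 0.522 to 2.8 CPM. For each of these genes control 3 was the lowest non-ciliated control. Gspt2 was 0.111 CPM in control 3 and 0.658 CPM in AB, whereas controls 1 and 2 held 9.69 and 6.6 CPM. Among the high genes, Prune2 was 40.7 CPM in control 3 against 1.1 to 7.15 CPM, Slc14a1 was 2.53 CPM against 0 to 0.691 CPM, Lhx1 was 1.52 CPM against 0 to 0.188 CPM, and all 3 were called higher. Chromosome 3 had a median of -0.526 in control 3, with 7.85% of its genes positive, against 0.38, -0.002 and -0.039 in AB, 1 and 2, and chromosome 19 had a median of 0.242 in control 3. Chromosome 6 had a median of 0.246, chromosome 5 of 0.048 and chromosome 4 of -0.043 in control 3. Shifts of such size were not particular to control 3. Control AB had a median of -0.587 on chromosome 6 (10.2% of genes positive) and of -0.403 on chromosome 18. Control 2 had a median of -0.62 on chromosome 1 (10.9% positive).

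Several high genes of D8 were not called in control 3. Lonrf3 was 11.9 CPM in control 3 but also 10.1 CPM in AB, and it was not called (edgeR adjusted p = 0.427). Il11 (6.48 CPM in control 3 against 0.355 to 7.57 CPM) and Sgk1 (66.6 CPM against 22.5 to 173 CPM) had means inside the range of the other control libraries and were not called. Fosb had a mean of 25.3 CPM in control 3 and 17.7 to 28.5 CPM in the others (adjusted p = 0.274). Slc14a2 had 0 counts in all 16 non-ciliated control libraries. Levels in the 2 states were scaled separately, and the states differ in serum per the study's methods, so values are compared within a state only.

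**Figure D4:**
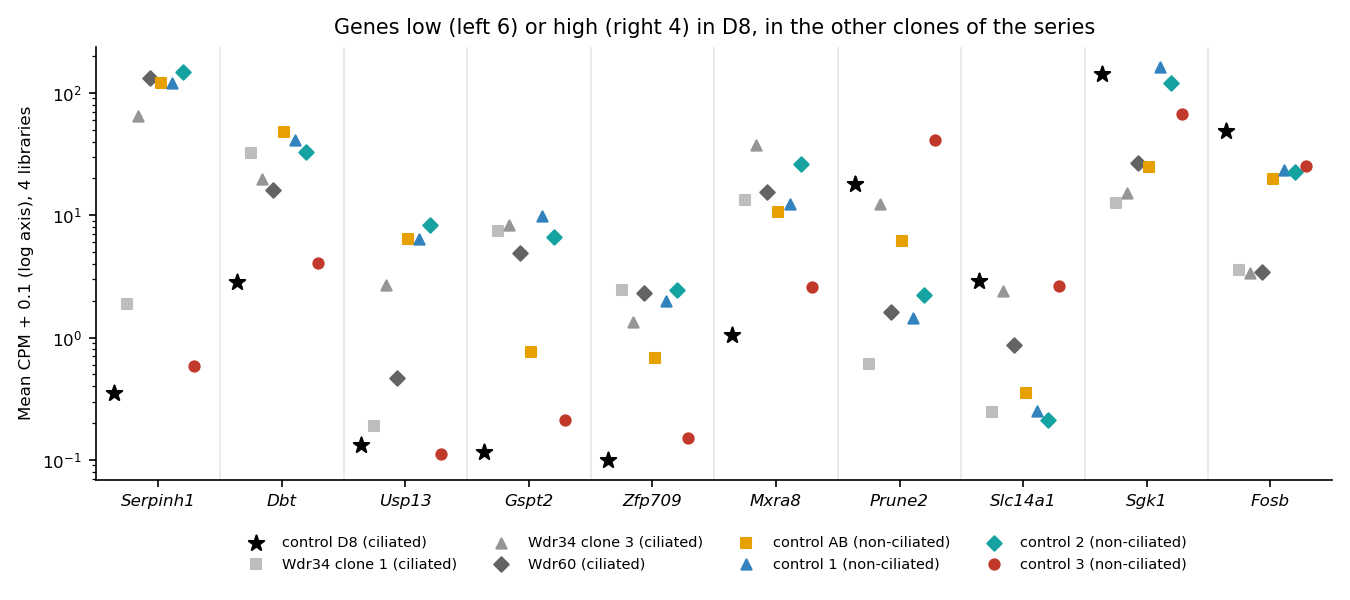
Mean CPM plus 0.1 on a log axis (4 libraries a clone) in D8, the 3 ciliated mutant clones and the 4 non-ciliated control clones, for 6 genes low and 4 genes high in D8. The states were scaled separately, so values are to be read within a state. Non-ciliated control 3 is the lowest non-ciliated control for Serpinh1 (0.487 CPM), Dbt (3.98 CPM), Usp13 (0.012 CPM) and Zfp709 (0.0505 CPM) and the highest for Prune2 (40.7 CPM), whereas for Sgk1 and Fosb it lies among the others or close to them.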

How the data were processed

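The authors deposited raw counts per gene symbol, made with Rsubread and featureCounts in R 3.4.4 from paired reads on the GRCm38 (mm10) build and not normalized, and their processing notes also name DESeq2 1.18.1. The strand setting and the handling of reads with several matches are not given in the sources used here. Here the 16 ciliated control libraries were grouped by their titles. Counts were filtered with filterByExpr, scaled by TMM and tested 2-sided with glmQLFTest of edgeR 4.0.16 (R 4.3.3) over 12325 genes with Benjamini-Hochberg adjustment, D8 against the 12 others as 1 group, and in a second fit with 4 clone groups. SE is the size of the log2 fold change over the square root of F. The fits were also run on simulated counts in which H12, A4 and G7 shared the same expected levels apart from library depth. That check does not cover differences among those clones. Gene lists are described by counts and medians without a set test. Positions and promoters came from RefSeq GRCm38.p6 tables, and 24300 of 24421 symbols matched.

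The members, gene lists and rules were chosen with earlier results of these data known. Named genes were, in each direction, the 12 with the largest fold change among those called against each clone, separated from all 12 libraries and at 5 CPM or more, the 6 with the highest level, up to 5 called members of each list by adjusted p (or the 2 most abundant), up to 4 genes of each run of neighbours that changed together, and Wdr34 and Wdr60. The genes said to be chosen after their values were seen lie outside this rule. Library totals were 14816218 to 28084979 counts, and 3 counts over the D8 libraries equal 0.0479 CPM after TMM scaling of the library sizes. Alternatives were RLE size factors, 2 other filters, DESeq2 1.42.0, other thresholds, 4 clone groups in 1 contrast, clones summed, the replicate number as a block, and leaving out each clone or library. Leaving A4 replicate 1 or G7 replicate 4 out of the list counts was added after the data were seen. Results for some genes are not reported here.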

Additional observations from a re-analysis of the deposited data

Results flagged for a closer look

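In 77 groups of 4 library values, 5 had a library far from the other 3 by Dixon's test, where chance alone flags about 1 in 20. G7 replicate 4 had a total of 28084979 counts and 14123 genes detected, both above the other G7 libraries. In D8, Gspt2 was 0.0616 CPM in replicate 3 and 0 in the other 3 libraries, a single count, and Usp13 was 0.128 CPM in replicate 4 and 0 in the other 3. Gas1 was 0.616 CPM in D8 replicate 3, below the other D8 libraries.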

How the results depend on the processing

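The main counts for D8 were 339 higher and 280 lower against the 12 libraries and 172 higher and 90 lower against each clone. Requiring at least 10 counts in every library gave 193 higher, and 44 and 46 against each clone, with fewer genes tested (10849). Fitting 4 clone groups with D8 against their mean gave 970 higher. With each clone summed to 1 sample, 0 genes were called higher and 0 lower. An adjusted p under 0.05 alone gave 1176 and 1583, and 833 and 910 against each clone, and an adjusted p under 0.01 gave 189 and 143. Without clone A4 the counts were 743 and 607. Leaving out 1 library gave 236 to 427 higher and 168 to 362 lower, and 145 to 185 and 73 to 93 against each clone. The fewest lower genes came without D8 replicates 1 (185), 2 (183) and 4 (168). The cause of these changes was not tested, other than fewer genes or samples where stated. RLE size factors, DESeq2, the filter of 1 count in any library and leaving out H12 or G7 kept the counts against the 12 libraries within 1.5 times. The genes called changed more than the counts when a clone was left out. Without H12, 235 of the 339 and 194 of the 280 were among those called, and without G7, 250 and 173.

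Same-numbered libraries of D8 and the other clones shared only a number, since their deviations correlated at -0.241 to 0.0758 over 12 pairs. With the replicate number as a block (replicate block), 269 genes were higher and 199 lower against the 12 libraries.

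Of 266 named genes, 210 were called, and 122 of these passed the threshold with any 1 library left out. Leaving out a D8 library ended 64 to 77 calls, an H12 library 16 to 17, an A4 library 3 to 16 and a G7 library 17 to 22. Leaving out a whole clone ended 55 calls for H12, 6 for A4 and 54 for G7. Only Umod reversed. It was not called (log2 fold change -1.79) and became 1.87 with 4 clone groups and 2.81 without H12. Genes below 1 CPM in D8 rest on few reads, which limits their fold changes.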
